A study of Rattus norvegicus with 3 samples.

Results

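Aminoacyl tRNA synthetases, the enzymes that load each tRNA with its amino acid, were measured in the kidneys of rats given thallium (Tl) and in those of control rats. The members were the probe sets whose single gene symbol in the platform's annotation is that of a synthetase, which gave 32 probe sets for 32 genes, of 15037 genes named on the array. Of these, 17 encode cytosolic enzymes, 13 encode mitochondrial enzymes, and 2 (Gars1 and Kars1) serve both compartments from 1 gene. A list of 38 known synthetase genes held 6 with no named probe set, 2 cytosolic and 4 mitochondrial.

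Total RNA of male Wistar rats, 7 weeks old at purchase, was hybridized to 3 Clariom S rat arrays, 1 for each of the groups Tl 2 days, Tl 5 days and control. The Tl groups received thallium sulfate intraperitoneally and the control group double distilled water. The dose is 30 mg/kg in the series design and 40 mg/kg in the sample labels, both with daily injections, whereas the study's methods describe a single injection at the lower dose, with kidneys removed 2 or 5 days later. The methods give 4 rats treated for Tl 2 days, 5 for Tl 5 days, among them rats that died before that day, and 4 control rats. It is not stated whether RNA of different rats was pooled for an array.

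With 1 array per group the spread between rats is unknown, so no difference was tested and no p-value is given. The values are log2 signals, so a difference of 1 between arrays is 2-fold, the limit used here. The samples' titles and the series design name kidney, whereas the source field gives spleen. The 10 listed proximal tubule markers had log2 signals of at least 12.0 on each array, whereas the 4 measured B cell markers and 6 of the 7 T cell markers lay below 6.83 on each array. This level, the 95th percentile of the spike-in (ERCC) probe sets, was the same on the 3 arrays, and a signal below it is called dim here. The proximal tubule markers had a median log2 signal of 15.5 on the Tl 2 days array, 16.2 on the Tl 5 days array and 15.3 on the control array. In tissue RNA, fewer cells of a type and less RNA per cell cannot be told apart.

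Each synthetase joins 1 amino acid to its tRNAs in a reaction that consumes ATP, and most cells keep separate genes for the cytosolic and the mitochondrial enzyme. The cytosolic enzymes feed the ribosomes that translate nuclear transcripts, and several of them sit together in a large multisynthetase complex. The mitochondrial enzymes are made in the cytosol, imported, and serve the translation of the few proteins encoded by mitochondrial DNA. Many cytosolic synthetase genes are known targets of Atf4, the transcription factor of the integrated stress response, which binds with C/EBP proteins to an element whose core reads TGATGNAA.

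Transcripts of most cytosolic synthetases were higher in both Tl groups than in the control group, and those of mitochondrial synthetases were near the control level. Of the 17 cytosolic members, 16 were above control on the Tl 2 days array and 15 on the Tl 5 days array, and 0 were below control in either. Of all 15037 genes, 5939 were above control and 6126 below at 2 days, and 5940 and 6067 at 5 days. With each array centred on its gene median, which shifted all differences by -0.12 at 2 days and -0.05 at 5 days, Farsa and Hars1 lay below control at both times, and likewise under quantile normalization. The 17 cytosolic members had, as deposited, a median log2 difference from control of 0.81 at 2 days and 0.68 at 5 days. The 13 mitochondrial members had a median of 0.00 at both times, the same as the median of all genes. The class medians thus lay 0.81 apart at 2 days and 0.68 apart at 5 days.

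Over 2-fold higher than control on the Tl 2 days array were 5 of 17 cytosolic members (29.4%), where 6.03% of all genes passed this limit. In the Tl 5 days group 4 of 17 did (23.5%), against 5.37% of all genes. Over 2-fold lower were 0 cytosolic members at either time, where 4.65% of all genes were lower at 2 days and 4.87% at 5 days. No mitochondrial member passed the 2-fold limit in either direction at either time (0 of 13). The 2-fold limit was also passed by the array's negative control probe sets, of which 8.33% were higher and 11.6% lower on the Tl 2 days array, and 10.9% higher and 7.89% lower on the Tl 5 days array. At a limit of 1.5-fold, 11 of 17 cytosolic members were higher at 2 days and 9 at 5 days, beside 12.0% and 11.2% of all genes, and 0 members were lower, beside 10.7% and 9.97%. The same control array stands in both comparisons, so the similarity between the times is no second observation.

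Markers of other cell types also differed between the Tl and control arrays. Of all genes, 6.03% were over 2-fold higher and 4.65% lower at 2 days, and 5.37% and 4.87% at 5 days. Of 9 macrophage markers, 4 were over 2-fold higher at 2 days and 5 at 5 days, with 0 lower. Dim on the control array were 7 of the 9, so the size of such folds is uncertain. The summed level of the 9 markers, on the log2 scale, was 10.5 on the Tl 2 days array and 11.3 on the Tl 5 days array. On the control array it was 9.50. Adgre1 and Cd163 were dim with identical signals on the 3 arrays. Of the 10 proximal tubule markers, 0 were over 2-fold higher and 2 lower at 2 days, and 4 were higher and 1 lower at 5 days. The 5 markers of the thick ascending limb were over 2-fold lower at both times. The part of such shifts in the differences of the synthetases was not tested.

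**Figure D1:**
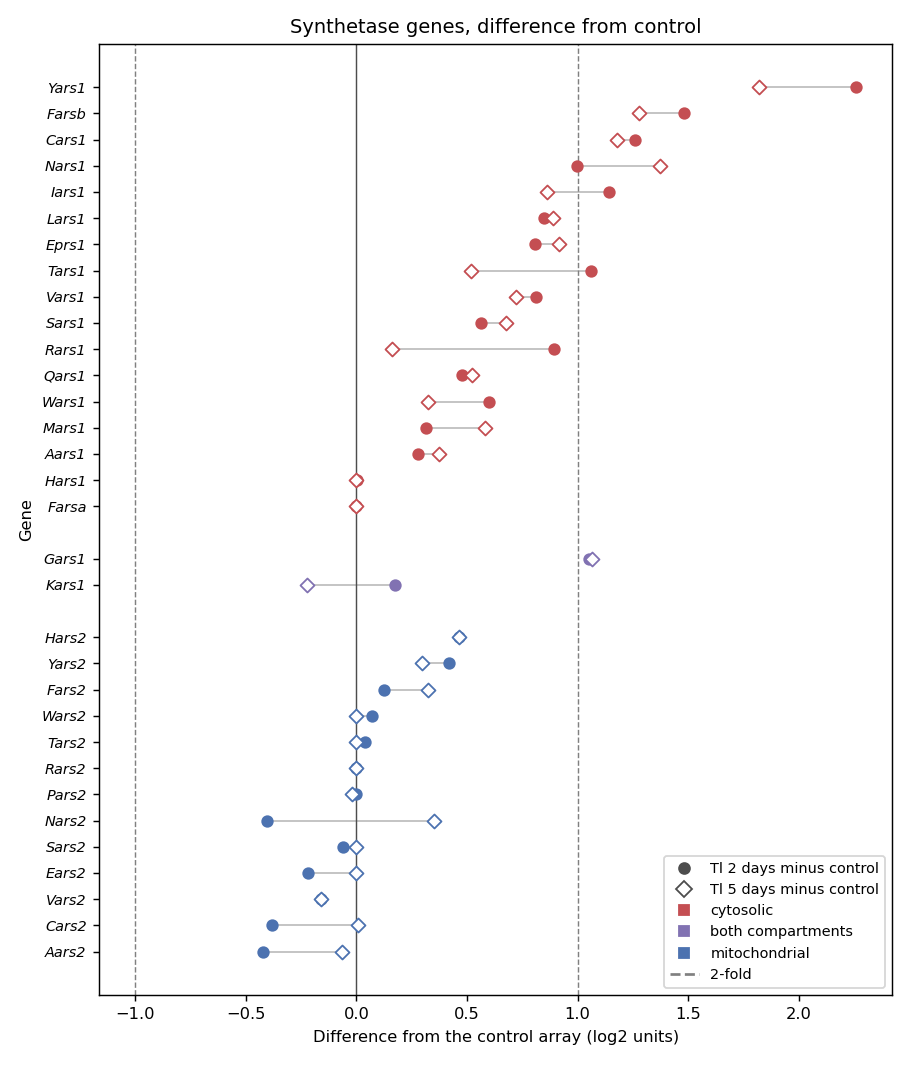
Difference from the control array, in log2 units, for each of the 32 synthetase genes, with Tl 2 days as filled circles and Tl 5 days as open diamonds. Cytosolic genes (top) reach 2.26, whereas mitochondrial genes (bottom) lie between -0.42 and 0.46. Dashed lines mark 2-fold, and there is 1 array per group.

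**Figure D2:**
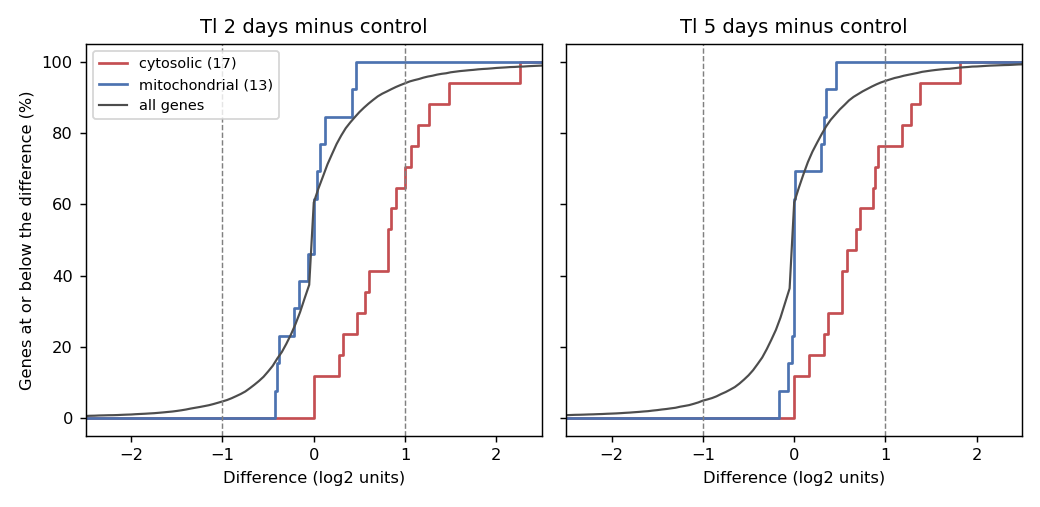
Share of genes (in percent) at or below a given log2 difference from control, for the 17 cytosolic members, the 13 mitochondrial members and all 15037 genes. The cytosolic curve lies to the right of that of all genes over most of its range at both times, and the mitochondrial curve stays within 2-fold of 0.

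Promoters of the members were searched for TGATGNAA on both strands, because the class of cytosolic members holds many known Atf4 targets. The sequences are those of RefSeq (build GRCr8), from 250 bases before to 50 bases after the start of the gene, and 30 of the 32 members had an entry, with none for Gars1 and Rars1. The core occurred in 7 of 16 promoters of cytosolic members (43.8%) and in 0 of 13 of mitochondrial members, where 3.98% of all 33469 promoters in the table hold it. The cyclic AMP response element TGACGTCA, which shares no full match with the core, occurred in 0 of the 30, against 1.83% of all promoters. For each of the 7 genes 1 match is printed, to show the letters around the core and where it lies. Each is written on the strand on which TGATGNAA reads, with the core in capitals and up to 10 bases on either side. Positions are counted from the start of the gene, and the core shown begins between -27 and 38 in each of the 7 genes. Aars1 holds another match, TGATGCAA at -112, which is not printed and lies outside that range.
Aars1, chr19:55908481-55908508, minus strand: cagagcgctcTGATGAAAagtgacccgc
Cars1, chr1:208225335-208225362, plus strand: ttccagaatcTGATGCAAccgcggcgcc
Iars1, chr17:15193659-15193686, plus strand: cgtctggaggTGATGCAAtactgacagt
Mars1, chr7:65023753-65023780, plus strand: gagcccacgcTGATGCAAccggaacggg
Nars1, chr18:60275779-60275806, minus strand: ctaggtgatcTGATGCAAcgcttcagtc
Tars1, chr2:62114812-62114839, plus strand: gctaaccagcTGATGCAAcgggacgcca
Yars1, chr5:146820191-146820212, plus strand: cgagctcagcTGATGCAAcctg

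Among the cytosolic enzymes, Yars1, which charges the tRNA for tyrosine, had the largest difference at both times in the deposited signals. Its log2 signal was 8.53 on the Tl 2 days array, 8.08 on the Tl 5 days array and 6.26 on the control array. The differences of 2.26 and 1.82 were 4.79-fold and 3.53-fold, and they exceeded those of 98.6% and 98.4% of all genes. The control signal of Yars1 was dim, the only such signal among the cytosolic members, so the size of its fold is uncertain. With dim signals set to the ERCC level its difference was 1.70 at 2 days, still the largest of the class, and 1.26 at 5 days, below those of Nars1 (1.37) and Farsb (1.28).

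Farsb and Farsa encode the beta and the alpha subunit of the cytosolic phenylalanine enzyme, which works as a tetramer of both, and they differed from each other. Farsb had log2 signals of 9.59 on the Tl 2 days array, 9.39 on the Tl 5 days array and 8.11 on the control array, or 2.79-fold and 2.42-fold above control. Farsa had the identical signal of 7.77 on the 3 arrays. Identical values on 2 arrays are common in the deposited table: they occurred for 19.8% of genes between Tl 2 days and control and for 20.2% between Tl 5 days and control.

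Cars1, the enzyme for cysteine, had log2 signals of 9.14 and 9.06 on the Tl 2 days and Tl 5 days arrays and 7.88 on the control array. Its folds over control of 2.40 and 2.26 made it, with Yars1 and Farsb, one of 3 cytosolic members past 2-fold at both times. Nars1, the enzyme for asparagine, stood at 12.85 on the Tl 2 days array and 13.23 on the Tl 5 days array, against 11.86 on the control array. At 2 days Nars1 was the member just below the limit, 1.998-fold above control, and at 5 days it passed the limit with a log2 difference of 1.37.

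Iars1 and Tars1, the enzymes for isoleucine and threonine, passed 2-fold only on the Tl 2 days array. Iars1 had log2 signals of 11.34 and 11.06 on the Tl 2 days and Tl 5 days arrays and 10.20 on the control array, with differences of 1.14 and 0.86. Tars1 had 11.65 and 11.11 on the Tl 2 days and Tl 5 days arrays and 10.59 on the control array, with differences of 1.06 and 0.52. Both genes thus had their highest signal on the Tl 2 days array. After centring, Tars1 at 2 days lay below the 2-fold limit, with 0.94.

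Between the Tl arrays the cytosolic class differed little, with a median log2 difference of -0.003 for Tl 5 days against Tl 2 days. Over 2-fold higher were 0 of 17 members and over 2-fold lower also 0, where 2.21% of all genes were higher and 3.07% lower. Rars1, which charges arginine tRNA, had the widest gap between the Tl arrays of the cytosolic members. It stood at 10.12 on the Tl 5 days array and 10.85 on the Tl 2 days array, a log2 difference of -0.73, with 9.96 on the control array. Nars1 had the largest positive difference between the Tl arrays among the cytosolic members, 0.37. Past 1.5-fold in this comparison lay 1 cytosolic member, Rars1, which was lower, where 7.67% of genes were lower and 6.37% higher. The 2-fold limit was passed upward by 11.4% of the negative control probe sets and downward by 6.24%. Whether the times differed beyond the spread of rats could not be tested.

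**Figure D3:**
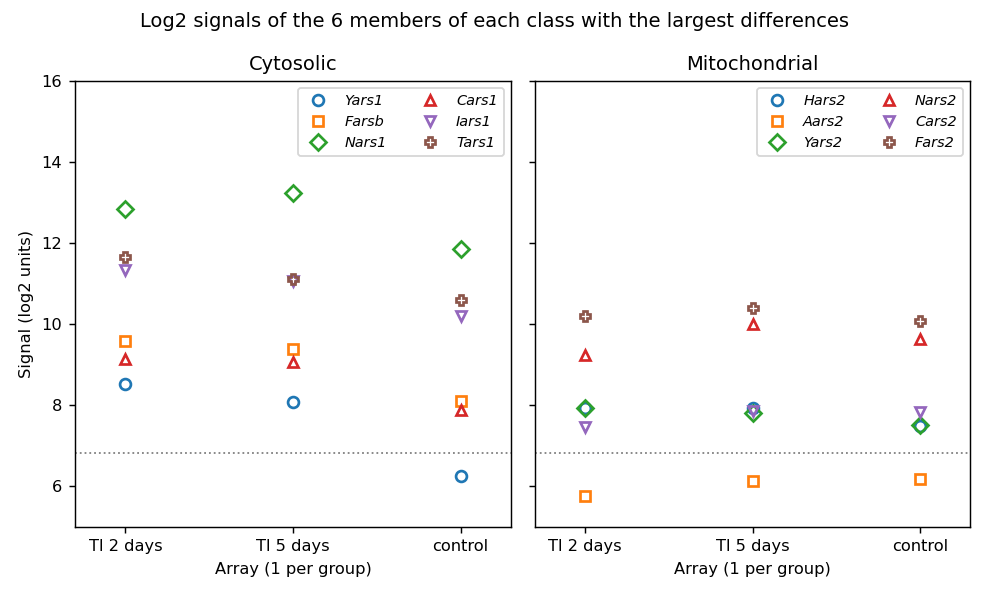
Log2 signal on the Tl 2 days, Tl 5 days and control arrays for the 6 cytosolic and the 6 mitochondrial members with the largest absolute difference from control. Points of the same symbol belong to 1 gene, and the dotted line is the ERCC level of 6.83, below which Yars1 lies on the control array and Aars2 on the 3 arrays.

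Most of the other cytosolic members had smaller differences with the same sign. Eprs1 encodes a single protein with the activities for glutamate and proline. It had log2 signals of 11.85 on the Tl 2 days array, 11.95 on the Tl 5 days array and 11.04 on the control array, 1.75-fold and 1.89-fold above control. Lars1 (leucine) was 0.85 and 0.89 above control on the log2 scale at 2 and 5 days, and Vars1 (valine), at 8.05 and 7.96 in the Tl groups and 7.24 on the control array, was 0.81 and 0.72 above it. Sars1 (serine) had 11.90 and 12.01 on the Tl 2 days and Tl 5 days arrays and 11.34 on the control array. These 4 genes were thus between 1.48-fold and 1.89-fold above control.

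Lower in the order came Wars1 (tryptophan), a gene known to be induced by interferon gamma, with log2 differences of 0.60 and 0.32 from control at 2 and 5 days. Qars1 (glutamine) had 0.48 and 0.52. Mars1 (methionine), which supplies the initiator tRNA as well, had 0.32 and 0.58. Aars1 (alanine) had 0.28 and 0.38, with log2 signals of 12.27 and 12.37 on the Tl 2 days and Tl 5 days arrays and 11.99 on the control array. Hars1 (histidine) had 10.43 on each of the 3 arrays, and its difference from control was 0.00 at both times. Between neighbours in this order the gaps are small, and without replicates their order cannot be secured.

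Gars1 and Kars1 encode the cytosolic and the mitochondrial form of the enzymes for glycine and lysine, and the array's single probe set for each gene does not tell the forms apart. Gars1 had log2 signals of 12.12 on the Tl 2 days array, 12.14 on the Tl 5 days array and 11.07 on the control array, 2.07-fold and 2.09-fold above control. After centring, Gars1 at 2 days lay below the 2-fold limit, with a log2 difference of 0.93. Kars1 had 10.94 and 10.54 on the Tl 2 days and Tl 5 days arrays and 10.76 on the control array, so it was 0.18 above control at 2 days and 0.22 below control at 5 days on the log2 scale. Gars1 thus lay among the higher cytosolic members at both times, and Kars1 below every cytosolic member at 5 days.

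The 13 mitochondrial members lay between -0.42 and 0.46 on the log2 scale relative to control at 2 days and between -0.16 and 0.46 at 5 days. At 2 days 5 of them were above control, 6 below and 2 identical to it. At 5 days 5 were above, 3 below and 5 identical, so that identical values set the median of 0.00 at both times. Such values made up 38.5% of mitochondrial members at 5 days and 20.2% of all genes. Dim on each array were 3 mitochondrial members, Aars2, Pars2 and Vars2.

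Highest relative to control was Hars2, the mitochondrial histidine enzyme, whose variants underlie Perrault syndrome in humans. Its log2 signal was 7.94 in both Tl groups and 7.48 on the control array, 1.38-fold above it. Yars2, the mitochondrial tyrosine enzyme, had 7.92 and 7.80 on the Tl 2 days and Tl 5 days arrays and 7.50 on the control array. Fars2 (phenylalanine) had 10.20 and 10.40 on the Tl 2 days and Tl 5 days arrays and 10.08 on the control array. These 3 genes were the only mitochondrial members above control by more than 0.1 on the log2 scale at both times in the deposited signals, and after centring Fars2 at 2 days was at -0.001.

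Lowest at 2 days were Aars2, Nars2 and Cars2, the mitochondrial enzymes for alanine, asparagine and cysteine. Aars2 had log2 signals of 5.76 and 6.12 on the Tl 2 days and Tl 5 days arrays and 6.19 on the control array, all dim. Nars2 had 9.24 on the Tl 2 days array, 9.99 on the Tl 5 days array and 9.64 on the control array, so it stood below control at 2 days and above it at 5 days. Cars2, which also makes cysteine persulfides, had 7.46 and 7.85 on the Tl 2 days and Tl 5 days arrays and 7.84 on the control array. For each of the 3 the Tl 2 days array gave the lowest signal, and none was 1.5-fold below control.

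Ears2, the mitochondrial glutamate enzyme, had 7.07 on the Tl 2 days array and 7.29 in both the Tl 5 days and the control group. Sars2, the serine enzyme whose loss of function causes a syndrome with kidney failure in humans, had 7.29 on the Tl 2 days array and 7.35 in the other 2 groups. Vars2 had a dim 4.90 in both Tl groups and 5.06 on the control array. The remaining mitochondrial members, Pars2, Rars2, Tars2 and Wars2, differed from control by at most 0.07 on the log2 scale at either time. In these 7 genes the largest difference from control was that of Ears2 at 2 days, -0.22.

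Enzymes of the same amino acid were then set side by side, which holds the amino acid constant between the compartments. Of 14 such pairings, the difference from control was larger for the cytosolic enzyme in 12 at 2 days and in 12 at 5 days, and the median gap was 0.93 and 0.78 on the log2 scale. The pairings share genes, since Eprs1 is set against both Ears2 and Pars2, and Farsa and Farsb against Fars2. In the 10 pairings that share no gene, the cytosolic enzyme had the larger difference in 9 at each time.

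The gap was over 2-fold at both times for tyrosine (1.84 and 1.52), cysteine (1.64 and 1.17) and asparagine (1.40 and 1.02). With dim signals set to the ERCC level, Yars1 differed from control by 1.26 at 5 days and Yars2 by 0.30. The tyrosine gap at 5 days then lay under 2-fold. At 2 days only, the gap passed 2-fold for phenylalanine with Farsb (1.36), glutamate (1.03) and threonine (1.02), with 0.95, 0.92 and 0.52 at 5 days. Valine had gaps of 0.97 and 0.88, alanine 0.70 and 0.44, and serine 0.62 and 0.68. Tryptophan followed with 0.53 and 0.32 and proline with 0.81 and 0.94. Arginine had the widest change of gap between the times, with 0.90 at 2 days and 0.16 at 5 days. For alanine, cysteine, glutamate, asparagine, serine and valine, the cytosolic enzyme was above control and the mitochondrial one below it on the Tl 2 days array. Of these, Aars2 and Vars2 were dim on each array. Set to the ERCC level, both differed from control by 0 at 2 days, and the gaps for alanine and valine were smaller.

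Histidine went the other way, with gaps of -0.46 at both times, since Hars2 was 0.46 above control and Hars1 differed from control by 0.003 at 2 days and 0.00 at 5 days. Hars1 and Hars2 are neighbours that are transcribed away from each other, and in the GRCr8 assembly 97 bases lie between them. The proteins are close relatives, and whether the probe sets also detect each other's transcripts was not tested. The other pairing with a negative gap was Farsa with Fars2, at -0.12 and -0.32.

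**Figure D4:**
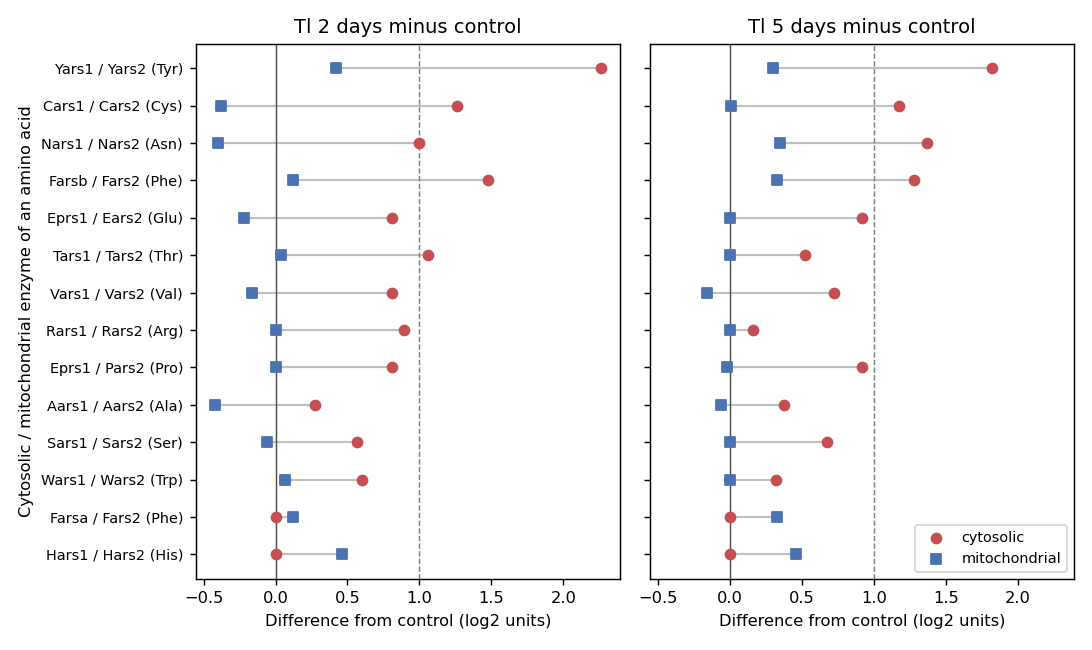
Difference from control (log2 units) of the cytosolic enzyme (circles) and the mitochondrial enzyme (squares) of the same amino acid, for Tl 2 days (left) and Tl 5 days (right). The circle lies to the right of the square in 12 of 14 pairings in each panel, and the lowest pairings, histidine and phenylalanine with Farsa, are the reverse.

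Features of the enzymes that the choice of members did not use were then compared within the cytosolic class. In the multisynthetase complex were 6 of them (Eprs1, Iars1, Lars1, Mars1, Qars1 and Rars1), with median log2 differences of 0.83 and 0.72 from control. Of the 6, 1 was over 2-fold higher at 2 days and 0 at 5 days, beside 6.03% and 5.37% of all genes. Kars1 also belongs to the complex but not to this class, and it differed by 0.18 and -0.22. The 11 cytosolic members outside the complex had medians of 0.81 and 0.68, with 4 over 2-fold higher at each time (36.4%). With so few genes, these counts do not tell members inside and outside the complex apart. Synthetases also fall into class I and class II by the fold of the catalytic domain. The 9 members of class I had medians of 0.85 and 0.72 and the 7 of class II 0.56 and 0.52, with Eprs1 belonging to both.

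Of the cytosolic members, 12 stood on a list of synthetases known as Atf4 targets, drawn up from general knowledge. Earlier results of these data were known when it was drawn up, so the split is no independent observation. Each of the 12 was above control at both times, where 5939 of all 15037 genes were at 2 days and 5940 at 5 days. The median of the 12 was 0.83 at 2 days and 0.79 at 5 days. Over 2-fold higher were 4 of the 12 at 2 days (33.3%) and 3 at 5 days (25%), beside 6.03% and 5.37% of all genes. The 5 that are not on that list (Farsa, Farsb, Hars1, Qars1 and Rars1) had medians of 0.48 and 0.16, and only Farsb among them passed 2-fold, at both times. These subclasses are small and overlap in their values.

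The 7 members whose promoter holds the core, all on the list of Atf4 targets, had median log2 differences from control of 1.06 on the Tl 2 days array and 0.86 on the Tl 5 days array. They include Yars1, Cars1, Nars1, Iars1 and Tars1, of which 4 passed 2-fold at 2 days and 3 at 5 days. They also include Aars1 and Mars1, which were, after Farsa and Hars1, the cytosolic members closest to control at 2 days. The 9 cytosolic members whose window does not hold these letters had medians of 0.60 and 0.68, and Farsb passed 2-fold among them. Of all genes, 6.03% were over 2-fold higher at 2 days and 5.37% at 5 days. The search was chosen with earlier results of these data known, so this contrast is no independent observation either. A match in a promoter is a description of the sequence, and binding was not measured.

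Genes that work with the synthetases mostly lay within 2-fold of control. The lists are short, and of all genes 6.03% were over 2-fold higher and 4.65% lower at 2 days. At 5 days these shares were 5.37% and 4.87%. Of the 3 scaffold proteins of the multisynthetase complex, Aimp1, Aimp2 and Eef1e1, 0 passed 2-fold, with median log2 differences of 0.42 and 0.06 from control. The 3 were above control at 2 days, Eef1e1 the most with 0.69. The list of proteins that edit, amidate or formylate charged tRNA had 8 measured members of 10, and only Sepsecs, which completes the synthesis of selenocysteine on its tRNA, was past 2-fold. Sepsecs had log2 signals of 11.75 on the Tl 2 days array, 11.46 on the Tl 5 days array and 12.72 on the control array, a difference of -0.97 at 2 days and -1.26 at 5 days. Pstk, on the same list, differed by -0.82 and -0.60, with dim signals on both Tl arrays. Eef1a1, which carries charged tRNA to the ribosome, stood at 19.93 on both Tl arrays and 19.76 on the control array. The highest value on each of the 3 arrays is 19.93, so a higher level of Eef1a1 may not have been resolved. The 8 measured mitochondrial translation factors, which act downstream of the mitochondrial synthetases, had median log2 differences of -0.003 and 0.00, and 0 passed 2-fold.

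Targets of Atf4 other than synthetases passed 2-fold more often upward than downward. Of 33 measured genes, 8 were over 2-fold higher (24.2%) and 2 lower (6.06%) at 2 days, beside 6.03% and 4.65% of all genes. At 5 days 14 were higher (42.4%) and 1 lower (3.03%), beside 5.37% and 4.87% of all genes. Of the genes higher at 5 days, Atf3, Atf5, Mthfd2, Cebpb, Eif4ebp1, Slc7a11, Slc7a5, Slc6a9 and Gpt2 had dim control signals. Atf5, Cebpb and Gpt2 were dim on the Tl 5 days array as well. Among those higher at 2 days, Atf3, Mthfd2, Slc7a11, Slc7a5 and Slc6a9 had dim control signals. The size of these folds is uncertain. Asns, the asparagine synthetase that makes the amino acid used by Nars1, had log2 signals of 10.68 on the Tl 2 days array, 12.01 on the Tl 5 days array and 8.03 on the control array. Atf4 itself, counted among the 33, stood at 13.72 and 13.96 on the Tl 2 days and Tl 5 days arrays and 12.69 on the control array. Slc7a11, the cystine importer, differed from control by 2.89 and 2.78, from a dim control signal, and Cth, which makes cysteine from cystathionine, by -1.82 and -2.02. Ddit3, commonly used as a marker of this response, differed by -0.09 at both times. Trib3, another such marker, was dim on the 3 arrays, as were 16 of the 33 listed targets on the control array. The paper reported less phosphorylated eIF2α, a translation initiation factor, and more Myc, a transcription factor, in the Tl groups than in control. The part of Atf4 or of either of these in the differences of the synthetases was not tested.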

How the data were processed

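Each of the 3 groups, taken from the sample titles, was measured with 1 Clariom S rat array. The authors deposited log2 signals, 1 for each of 24834 probe sets per array; they used Transcriptome Analysis Console, and its version, the summarization and the normalization are not given in the sources used here. The base of the logarithm was taken as 2 because the highest value on each array, 19.93, is that of log2 of 1000000. The platform's annotation gave 1 gene symbol for 15049 probe sets, several for 0, and 9785 were not named. Probe sets of a gene were averaged (10 genes, 0 of them members), which left 15037 genes.

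Computed here were differences of log2 signals between arrays, counts past 2-fold, and medians by class. No test was possible with 1 array per group, so 0 p-values are given, and precision is limited by how few arrays there are. The code that computes the counts and medians was checked on simulated arrays with known differences. Members named with their values are the 6 of each main class with the largest difference, those past 2-fold, pairs with opposite signs, and Gars1 and Kars1. Values of the other members were added after they were seen. Members, lists and the TGATGNAA search were chosen with earlier results of these data known. Alternatives were quantile normalization, centring, a floor or filter at the ERCC level (63 probe sets, 95th percentile), the brightest probe set, limits of 1.5-fold and 3-fold, and placing Gars1 and Kars1 in either class. The software was pandas 2.3.3 and numpy 2.4.6 under Python 3.11.15, with matplotlib 3.10.9 for the plots. Some items are not reported here.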

Additional observations from a re-analysis of the deposited data

Results flagged for a closer look

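Kars1 and Nars2 lay on opposite sides of the control array at the 2 times by more than 0.1 on the log2 scale. Kars1 differed by 0.18 on the Tl 2 days array and by -0.22 on the Tl 5 days array, and Nars2 by -0.40 on the Tl 2 days array and by 0.35 on the Tl 5 days array. The difference between the times was not tested, since each group has 1 array. Such opposite differences occurred for 2 of 32 synthetases (6.25%), for 7.09% of all genes and for 20.1% of the negative control probe sets.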

How the results depend on the processing

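No paired analysis was possible because each group has 1 array, and for the same reason no array could be left out. The counts moved with the limit and with the class of the dual enzymes. At 1.5-fold, 11 cytosolic members were higher on the Tl 2 days array and 9 on the Tl 5 days array than on the control array. Between Tl 5 days and Tl 2 days, 1 cytosolic member (Rars1) was lower and 1 mitochondrial member (Nars2) higher at that limit. At 3-fold, 1 cytosolic member (Yars1) was higher at 2 days and 1 (also Yars1) at 5 days, where its control signal was dim and its difference with the ERCC floor, 1.26, lay below that limit. With Gars1 and Kars1 placed in the mitochondrial class, 1 of its members (Gars1) was over 2-fold higher at each time. Under quantile normalization the class medians lay 0.86 apart at 2 days and 0.70 apart at 5 days. Centring each array on its gene median shifted the differences by -0.12 at 2 days and -0.05 at 5 days, which left 4 cytosolic members over 2-fold higher at each time and put Tars1 (0.94) and Gars1 (0.93) below the limit at 2 days. It turned the sign of 9 of 96 member differences and quantile normalization that of 5, all of them near 0 except Fars2 at 2 days, 0.12 as deposited and -0.001 after centring. Signals of Aars2, Pars2 and Vars2 on each array, and of Yars1 on the control array, were below the ERCC level, which limits their precision.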
